A study of Homo sapiens with 16 samples.

Results

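The genes described here license origins of DNA replication, fire them and run the replication fork. They are 46 genes of the 60676 gene identifiers in the deposited tables, chosen by symbol from a list that covers origin recognition and loading, the MCM2-7 helicase, origin firing, polymerases and primase, the sliding clamp and its loader, single-strand binding, fork protection, chromatin assembly and E2F transcription factors. RNA was sequenced in 16 libraries of 2 human melanoma cell lines, 8 of A101D and 8 of MeWo. The labels call A101D methionine dependent and MeWo methionine independent, and the study asked what follows when homocysteine replaces methionine in the medium. Per the growth protocol, cells were kept either with methionine at 200 µM or with homocysteine at 200 µM in its place. No label says which library had which medium. The libraries are therefore given by cell line and by replicate number, as replicates 1 to 4 and replicates 5 to 8 of each line (4 libraries per group), and the labels do not say what separates the 2 sets. They also do not say whether the libraries are separate cultures, so the p-values measure only the spread between these libraries, which may be technical. Each line is a single established cell line, so a difference between MeWo and A101D is one between these 2 lines.

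Replication starts in G1 phase, when the origin recognition complex, CDC6 and CDT1 load the MCM2-7 helicase onto DNA. In S phase the kinase CDC7 with its partner DBF4, and the loading of CDC45 and the GINS complex, turn the helicase into an active fork, on which polymerases alpha, delta and epsilon work with the clamp PCNA. Many of these genes are known targets of E2F transcription factors, which pocket proteins such as RB1 hold inactive until cells commit to division.

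Total counts ran from 28910881 to 38961862 per library. The number of genes with a count was 31281 to 33107 in A101D 1 to 4, 34020 to 34607 in A101D 5 to 8, and 30066 to 34471 in MeWo, where replicate 2 stood apart at the upper end. Mitochondrial genes took 1.71% to 1.92% of the counts in A101D 1 to 4 and 1.93% to 2.33% in A101D 5 to 8. SOX10, a transcription factor of the pigment cell lineage, stood at 398 ± 17.6 and 361 ± 10.2 CPM (CPM is a gene's count relative to the scaled library total) in the A101D sets and at 464 ± 20.3 and 454 ± 25.8 CPM in the MeWo sets (SD, n = 4). The melanin enzymes TYR and TYRP1 were nearly absent in replicates 1 to 4 of A101D, at 1.42 ± 0.232 and 0.402 ± 0.182 CPM, against 308 ± 23.2 and 2260 ± 175 CPM in MeWo (SD, n = 4). DCT, also a melanin enzyme, was the highest of 8 pigment cell markers in both A101D sets. Its means there were 1690 CPM in replicates 1 to 4 and 1310 CPM in replicates 5 to 8. All 46 genes passed the filter on low counts, among 21569 genes tested.

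Promoter letters are shown for 6 of the genes, because the group includes E2F factors and many of their known targets. The stretches were chosen after expression values and matches had been seen. They come from RefSeq (GRCh38.p14), 5′ to 3′ on the gene's strand, and capitals mark exact matches on either strand to TTTGGCGC, TTTCGCGC, TTTCCCGC or TTTGCCGC, called E2F-like here. E2F1 and E2F2 are E2F factors themselves, CDT1 is a helicase loader, MCM6 a helicase subunit and PCNA the clamp. FEN1, the flap nuclease of the lagging strand, had no match in the window and the smallest difference between the A101D sets. It does not stand for the 20 genes without a match, whose log2 fold changes between these sets ran from -3.48 to -0.15 (median -1.68). The positions are chr20:33686386-33686455 (minus strand) for E2F1, chr1:23531237-23531306 (minus) for E2F2, chr16:88803719-88803788 (plus) for CDT1, chr2:135876491-135876560 (minus) for MCM6, chr20:5126643-5126712 (minus) for PCNA and chr11:61792841-61792910 (plus) for FEN1.
E2F1: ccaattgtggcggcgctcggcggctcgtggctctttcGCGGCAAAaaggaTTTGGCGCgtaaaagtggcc
E2F2: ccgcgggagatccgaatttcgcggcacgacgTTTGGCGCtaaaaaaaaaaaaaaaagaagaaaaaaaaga
CDT1: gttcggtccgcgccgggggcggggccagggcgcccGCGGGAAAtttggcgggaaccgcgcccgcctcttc
MCM6: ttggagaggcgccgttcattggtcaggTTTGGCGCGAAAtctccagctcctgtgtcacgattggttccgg
PCNA: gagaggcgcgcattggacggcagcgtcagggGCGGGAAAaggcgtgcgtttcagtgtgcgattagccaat
FEN1: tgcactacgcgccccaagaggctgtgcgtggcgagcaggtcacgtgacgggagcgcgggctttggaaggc

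A promoter window, from 250 bases before to 50 after the start, was listed for 39 of the 46 genes. An E2F-like match lay in 19 of them (48.7%), against 908 of 27305 promoters of the same length (3.33%). Overlapping matches were each counted: the MCM6 run in capitals holds TTTGGCGC and, sharing 4 bases with it, GCGCGAAA, which is TTTCGCGC on the other strand. The letters CCAAT, on either strand, were found in 53.8% of these promoters and in 35.7% of all. The letters TTTGAA or TTCGAA, known as the cell cycle homology region, were found in 5.13% and in 16.6%. A match is a description of letters and not of binding, and the absence of a match says nothing about a factor. All promoters here are the first listed of each symbol, whether or not the gene was tested. Base composition was not matched between the 46 genes and all promoters.

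In A101D, all 46 genes were lower in libraries 5 to 8 than in libraries 1 to 4, at an adjusted p under 0.05 by limma with voom weights. Of all genes tested, 35.8% were called lower and 29.6% higher in this comparison. Of these calls 45.2% were higher, against 59.5% with total counts only. The median log2 fold change of the 46 genes was -1.88, against -0.05 over all genes tested, and 40 of the 46 were more than 2-fold and 20 more than 4-fold lower. The lower and upper quartiles of the log2 fold change were -2.38 and -1.29 in the 46 genes, and -0.45 and 0.38 over all genes tested. In each of the 46 genes every library of 5 to 8 lay below every library of 1 to 4, where 32.9% of all genes did so. The differences ran from -5.18 (E2F2) to -0.15 (FEN1). In a bulk sample, fewer cells in a given state and less RNA per cell cannot be told apart. In MeWo the same contrast was small, with a median of -0.12, against -0.02 over all genes tested.

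**Figure D1:**
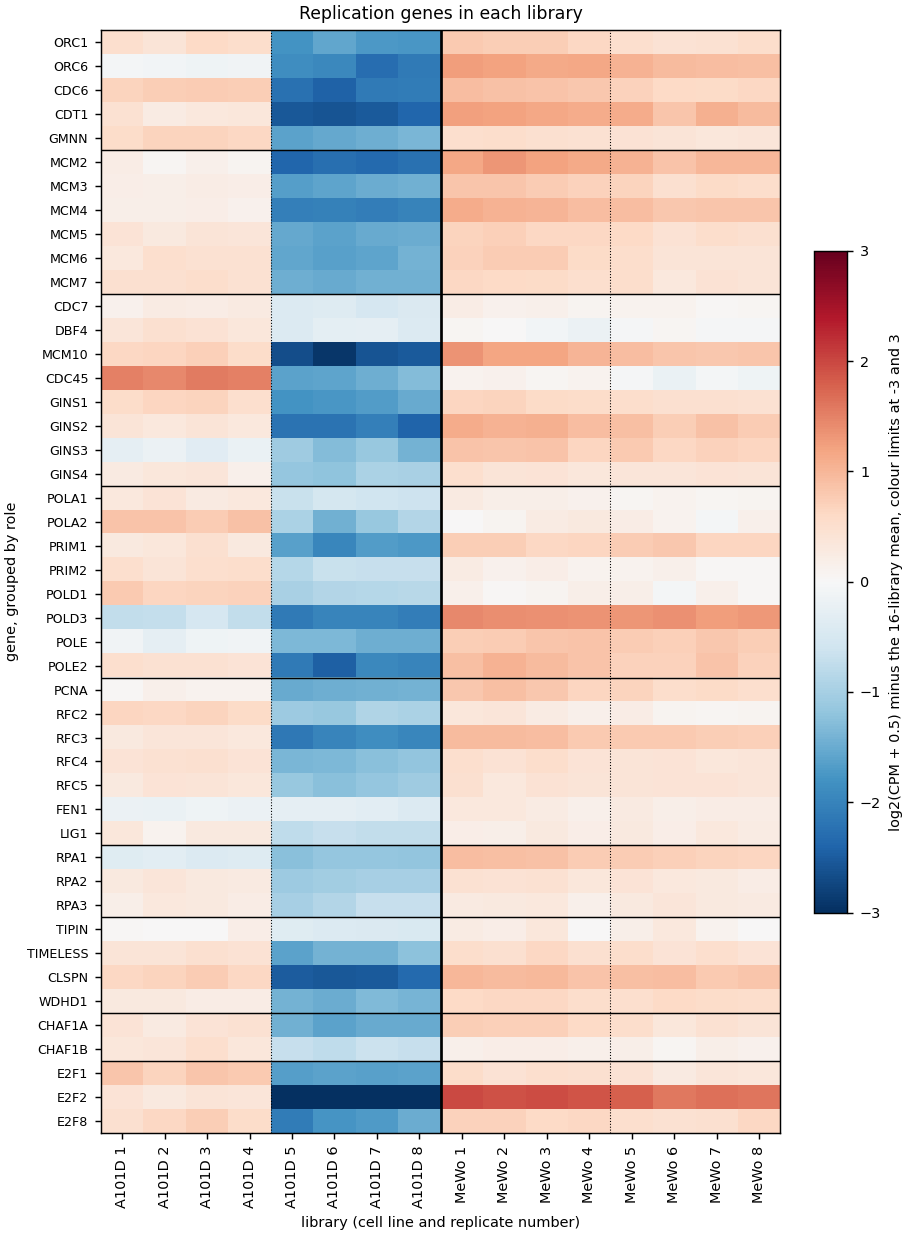
Level of each of the 46 genes (rows, grouped by role) in each of the 16 libraries (columns), as log2(CPM + 0.5) minus the gene's mean over the 16 libraries, with the colour limits at -3 and 3. The 4 columns of A101D 5 to 8 are blue in every row, and palest for FEN1, DBF4, CDC7 and TIPIN.

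The mean of this centred log2 value over the 46 genes was 0.33 to 0.38 in A101D 1 to 4, -1.52 to -1.44 in A101D 5 to 8, 0.57 to 0.67 in MeWo 1 to 4 and 0.48 to 0.56 in MeWo 5 to 8. The genes took 0.28% to 0.293% of all counts in A101D 1 to 4, 0.101% to 0.103% in A101D 5 to 8, and 0.343% to 0.373% in MeWo. Within a group the libraries lay close together, with a median coefficient of variation of 4.1%, 6.63%, 4.38% and 4.27% over the genes in these 4 groups. The scaling factors were 0.942 to 0.958 in A101D 1 to 4 and 1.05 to 1.08 in A101D 5 to 8. The number of genes with a count, the mitochondrial share and the scaling factor all moved with the A101D sets. The part of the gene number and of the mitochondrial share in the result was not tested. Without scaling factors (total counts only), 45 of the 46 genes were called lower in A101D 5 to 8. Their median log2 fold change was then -1.72, against -1.88 with the factors.

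Markers of other cell types were read in the same libraries. Of all genes tested, 29.6% were called higher and 35.8% lower in A101D 5 to 8. All 4 endothelial markers were higher in A101D 5 to 8, with a summed level of 108 to 124 CPM in 1 to 4 and 134 to 142 CPM in 5 to 8. KDR made up most of it, VWF stood at 3.8 ± 0.494 and 15.6 ± 1.67 CPM, CDH5 at 0.386 ± 0.0842 and 1.07 ± 0.265 CPM, and PECAM1 at 0.2 ± 0.0431 and 0.497 ± 0.138 CPM (SD, n = 4). Of 6 fibroblast markers 4 were higher and 1 was lower, COL1A2, at 979 ± 50.8 and 587 ± 30.6 CPM (SD, n = 4). The summed fibroblast level was 930 to 1050 CPM in A101D 1 to 4 and 570 to 636 CPM in 5 to 8. The largest differences of this list, up to a log2 fold change of 2.98, were those of COL3A1 and DCN. Both genes stood under 0.5 CPM in both A101D sets. Of 5 epithelial markers 2 were tested and both were higher, with a summed level of 1.56 to 1.6 and 3.94 to 4.47 CPM and with EPCAM and KRT5 near 0. The 2 were KRT14, at 0.609 ± 0.191 and 1.91 ± 0.279 CPM, and CDH1, at 0.763 ± 0.127 and 1.76 ± 0.175 CPM (SD, n = 4). Of 6 leukocyte markers 2 were tested, LYZ and CD68, and neither passed, with a summed level of 3.14 to 3.38 and 3.48 to 4.07 CPM and with PTPRC and CD3E near 0. Of 8 pigment cell markers 5 were lower and 2 higher, with a summed level of 2930 to 3510 and 2460 to 2690 CPM. The largest difference of the 8 was that of TYRP1, with a log2 fold change of 1.81 from a mean under 0.5 CPM in 1 to 4. Of the pigment cell markers that were lower, MITF stood at 221 ± 19.4 and 146 ± 7.08 CPM and MLANA at 30.2 ± 5.35 and 17.4 ± 0.923 CPM (SD, n = 4). The part of these levels in the result was not tested.

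Among the 5 genes of origin recognition and loading, all were lower in A101D 5 to 8, with a median log2 fold change of -2.28. CDC6, the ATPase that helps load the helicase, had the largest difference. Per length it was the highest of the 5 in A101D 1 to 4 (16.3 RPKM, that is CPM per kilobase of exon), while GMNN was in A101D 5 to 8 (3.32) and CDT1 in MeWo 1 to 4 (18.6) and MeWo 5 to 8 (16.3). Its 4 A101D libraries 1 to 4 held 86.6, 91.5, 93 and 91.1 CPM, and libraries 5 to 8 held 11.1, 9.67, 12.1 and 12.3 CPM. In MeWo it stood at 104, 99.7, 98.8 and 95.6 CPM in libraries 1 to 4 and at 87.9, 82.5, 80.4 and 83.6 CPM in libraries 5 to 8. The sets did not overlap in either line, but the gap was wide in A101D and narrow in MeWo. The log2 fold change of CDC6 between sets was -3.01 ± 0.06 (SE, limma adjusted p = 1.04e-35) in A101D and -0.25 ± 0.04 (adjusted p = 5.48e-05) in MeWo. CDT1, which brings the helicase to the origin, was 7.9-fold lower in A101D 5 to 8, and GMNN (geminin), the inhibitor of CDT1, was 4.5-fold lower. The largest and the sixth subunits of the origin recognition complex, ORC1 and ORC6, were 4.84-fold and 4.13-fold lower.

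The 6 subunits of the MCM2-7 helicase, the ring that unwinds DNA, were 3.35-fold (MCM3) to 5.6-fold (MCM2) lower in A101D 5 to 8. MCM7 had the highest level of the 6 per length. It stood at 316, 315, 324 and 309 CPM in A101D 1 to 4 and at 81.7, 78.5, 83.6 and 83.4 CPM in A101D 5 to 8. Its MeWo libraries held 346, 343, 337 and 320 CPM in 1 to 4 and 325, 281, 306 and 296 CPM in 5 to 8, so the MeWo sets overlapped. The log2 fold change of MCM7 was -1.95 ± 0.04 (SE, limma adjusted p = 3.54e-35) in A101D and -0.16 ± 0.04 (adjusted p = 0.00274) in MeWo. MCM2, the subunit that also binds histones, held 73.5, 65.6, 70 and 66.5 CPM in A101D 1 to 4 and 11.6, 12.6, 12 and 13 CPM in A101D 5 to 8. In MeWo it held 141, 157, 146 and 139 CPM in 1 to 4 and 131, 114, 125 and 125 CPM in 5 to 8. MCM2 was thus lower in every A101D 5 to 8 library than in all others, with a log2 fold change of -2.48 ± 0.06 (SE, limma adjusted p = 2.33e-32).

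The subunits work as one ring, but their RNA levels per length differed. The ratio of the highest to the lowest RPKM among MCM2 to MCM7 was 5.14 ± 0.234 in A101D 1 to 4, 7.46 ± 0.453 in A101D 5 to 8, 3.13 ± 0.123 in MeWo 1 to 4 and 3.39 ± 0.112 in MeWo 5 to 8 (SD, n = 4). MCM7 was highest in all 4 groups, MCM2 lowest in both A101D sets and MCM6 lowest in both MeWo sets. The ratio of CDT1 to GMNN per length was 0.693 ± 0.0643 in A101D 1 to 4, 0.396 ± 0.0191 in A101D 5 to 8, 1.36 ± 0.0178 in MeWo 1 to 4 and 1.3 ± 0.109 in MeWo 5 to 8 (SD, n = 4). Its A101D values did not overlap between sets, and both lay below all MeWo values.

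**Figure D2:**
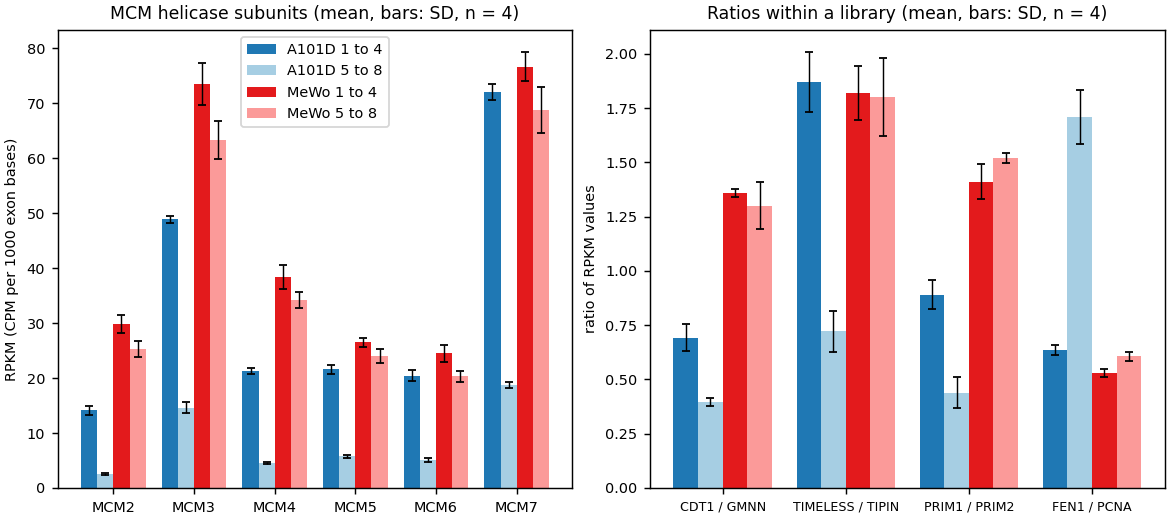
Left, RPKM of the 6 helicase subunits in the 4 groups (bars: mean, error bars: SD, n = 4). Right, ratios of RPKM between gene pairs, taken within each library, on the same groups; the FEN1 to PCNA ratio is higher and the CDT1 to GMNN, TIMELESS to TIPIN and PRIM1 to PRIM2 ratios are lower in A101D 5 to 8 than in A101D 1 to 4.

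Of the 8 genes of origin firing, all were lower in A101D 5 to 8, with log2 fold changes from -3.48 to -0.66. CDC45, which joins the helicase to form the active fork, had the highest level per length of this group in A101D 1 to 4 and in both MeWo sets. In A101D 5 to 8 it stood at 4.56 RPKM, below DBF4 (9.22) and CDC7 (6.58). It held 106.7, 100.7, 111 and 107.2 CPM in A101D 1 to 4 and 11.9, 12, 13.1 and 14.8 CPM in A101D 5 to 8. In MeWo it held 39.8, 40.3, 38.8 and 39.7 CPM in 1 to 4 and 36.1, 32, 35.4 and 33.8 CPM in 5 to 8. CDC45 was therefore above MeWo in one A101D set and below it in the other, with a log2 fold change between the A101D sets of -3.04 ± 0.06 (SE, limma adjusted p = 1.83e-36). MCM10, a factor needed to start unwinding, held 36.6, 37.6, 39.1 and 35 CPM in A101D 1 to 4 and 3.3, 2.71, 3.55 and 3.75 CPM in A101D 5 to 8. Its MeWo libraries held 60.9, 54.9, 54.2 and 48.6 CPM in 1 to 4 and 45.6, 42.9, 42 and 42.5 CPM in 5 to 8. MCM10 had the largest set difference of this group in both lines, -3.48 ± 0.1 in A101D (SE, limma adjusted p = 1.36e-29) and -0.33 ± 0.05 in MeWo (adjusted p = 1.2e-05). The kinase pair CDC7 and DBF4 differed least, 1.58-fold and 1.69-fold. The GINS subunits were unequal, at 5.21-fold and 6.55-fold for GINS1 and GINS2 and at 2.06-fold and 2.69-fold for GINS3 and GINS4.

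All 8 polymerase and primase genes were lower in A101D 5 to 8, with a median log2 fold change of -1.5. POLD1, the catalytic subunit of polymerase delta, held 115, 103, 105 and 107 CPM in A101D 1 to 4 and 33.5, 35.5, 36.4 and 37.2 CPM in A101D 5 to 8. In MeWo it held 73, 68, 69.9 and 74.4 CPM in 1 to 4 and 75.3, 63, 73.8 and 68.3 CPM in 5 to 8, which overlap. The log2 fold change of POLD1 was -1.59 ± 0.05 (SE, limma adjusted p = 1.01e-28) in A101D and -0.03 ± 0.05 (adjusted p = 0.757) in MeWo. POLE2, the second subunit of polymerase epsilon, held 9.81, 9.5, 9.55 and 9.25 CPM in A101D 1 to 4 and 1.17, 0.825, 1.4 and 1.35 CPM in A101D 5 to 8. MeWo libraries held 13.2, 14.6, 13.5 and 12.6 CPM of POLE2 in 1 to 4 and 11.2, 11.2, 12.7 and 11.3 CPM in 5 to 8. POLE2 was 8.16-fold lower in A101D 5 to 8, while POLE, the catalytic subunit of the same enzyme, was 2.4-fold lower. PRIM1 and PRIM2, the small and large primase subunits, were 4.81-fold and 2.35-fold lower, and POLA2 and POLA1 of polymerase alpha 4.49-fold and 1.92-fold. POLD1 and its partner POLD3 were closer, at 3.01-fold and 2.66-fold, and their ratio per length overlapped between the A101D sets (4.9 to 6.38 and 4.81 to 5.43).

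In the group of the clamp, its loader and lagging-strand joining, 7 of 7 genes were lower in A101D 5 to 8. PCNA, the sliding clamp, held 118, 128, 124 and 124 CPM in A101D 1 to 4 and 39.7, 41.2, 41.8 and 42.6 CPM in A101D 5 to 8. MeWo libraries held 202, 215, 201 and 180 CPM of PCNA in 1 to 4 and 183, 167, 170 and 163 CPM in 5 to 8. The log2 fold change of PCNA was -1.58 ± 0.05 in A101D (SE, limma adjusted p = 2.45e-29) and -0.23 ± 0.04 in MeWo (adjusted p = 0.0002). RFC3, a subunit of the clamp loader, held 61.2, 64.1, 64.5 and 62.3 CPM in A101D 1 to 4 and 11, 12.3, 13.3 and 12.5 CPM in A101D 5 to 8. In MeWo, RFC3 held 97.1, 97.2, 95.6 and 86 CPM in 1 to 4 and 87.1, 86.2, 84 and 82.7 CPM in 5 to 8. RFC3 was 5.13-fold lower in A101D 5 to 8, against 2.91-fold to 3.39-fold for RFC2, RFC4 and RFC5, and LIG1, the ligase that seals the lagging strand, was 2-fold lower.

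FEN1 differed from the other genes of this group in size. It held 131, 130, 136 and 131 CPM in A101D 1 to 4 and 122, 123, 119 and 111 CPM in A101D 5 to 8. In MeWo it held 186, 186, 175 and 165 CPM in 1 to 4 and 180, 169, 173 and 174 CPM in 5 to 8. The A101D sets did not overlap, with a log2 fold change of -0.15 ± 0.04 (SE, limma adjusted p = 0.00113). This call depended on the scaling of the libraries: with median-of-ratios factors the adjusted p was 0.102, and with total counts only the log2 fold change was 0.01 (adjusted p = 0.872). The ratio of FEN1 to PCNA per length was 0.634 ± 0.0236 in A101D 1 to 4 and 1.71 ± 0.124 in A101D 5 to 8, and 0.529 ± 0.0175 and 0.606 ± 0.0206 in the MeWo sets (SD, n = 4). FEN1 shares exon bases with TMEM258 and FADS2.

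The 3 genes of the single-strand binding complex RPA were lower in A101D 5 to 8 by 1.77-fold (RPA1), 2.55-fold (RPA2) and 2.13-fold (RPA3). RPA2, its middle subunit, held 67.4, 71.4, 67.9 and 66.3 CPM in A101D 1 to 4 and 25.5, 26.5, 27.4 and 27.5 CPM in A101D 5 to 8. MeWo libraries held 76.5, 74.8, 75.9 and 70.4 CPM of RPA2 in 1 to 4 and 73.4, 69.2, 67.7 and 64.4 CPM in 5 to 8. The sets were apart in A101D and overlapped in MeWo, with log2 fold changes of -1.35 ± 0.05 (SE, limma adjusted p = 5.15e-27) and -0.12 ± 0.04 (adjusted p = 0.059).

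Of the 4 genes of fork protection and coupling, CLSPN (claspin), the mediator of checkpoint kinase 1 activation, had the largest difference. It held 75, 77.8, 82.4 and 75.4 CPM in A101D 1 to 4 and 8.26, 7.92, 8.05 and 9.3 CPM in A101D 5 to 8. In MeWo it held 98, 94.9, 95.4 and 88.1 CPM in 1 to 4 and 91.5, 93.2, 85 and 87.1 CPM in 5 to 8. CLSPN was 9.25-fold lower in A101D 5 to 8 (log2 fold change -3.21 ± 0.07, SE, limma adjusted p = 2.4e-35), and its MeWo sets overlapped (-0.08 ± 0.04, adjusted p = 0.254). TIMELESS and TIPIN form one complex that travels with the fork. TIMELESS was 3.61-fold and TIPIN 1.4-fold lower, and their ratio per length was 1.87 ± 0.138 in A101D 1 to 4 and 0.721 ± 0.0939 in A101D 5 to 8, against 1.82 ± 0.124 and 1.8 ± 0.18 in MeWo (SD, n = 4). WDHD1, which links polymerase alpha to the helicase, was 3.24-fold lower.

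CHAF1A and CHAF1B encode subunits of CAF-1, which places histones on new DNA. CHAF1A held 70.9, 64.5, 70.2 and 73.4 CPM in A101D 1 to 4 and 19.3, 17.1, 18.4 and 18.2 CPM in A101D 5 to 8. MeWo libraries held 88.4, 88, 86.9 and 80.5 CPM of CHAF1A in 1 to 4 and 76.9, 67.3, 72.8 and 70 CPM in 5 to 8. Its sets did not overlap in either line, with log2 fold changes of -1.94 ± 0.05 (SE, limma adjusted p = 1.59e-30) in A101D and -0.26 ± 0.04 (adjusted p = 5.72e-05) in MeWo. CHAF1B was 2.15-fold lower in A101D 5 to 8.

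The E2F factors of the list are 2 activators, E2F1 and E2F2, and the repressor E2F8. E2F1, the one with the highest level per length, held 90.7, 81, 90 and 87 CPM in A101D 1 to 4 and 15.7, 16.2, 16.1 and 16.3 CPM in A101D 5 to 8. In MeWo it held 74.6, 68.6, 71.4 and 70.6 CPM in 1 to 4 and 67.9, 60.7, 64.8 and 64 CPM in 5 to 8. The log2 fold change of E2F1 was -2.44 ± 0.05 (SE, limma adjusted p = 1.01e-34) in A101D and -0.15 ± 0.04 (adjusted p = 0.0145) in MeWo. E2F2 held 21.6, 20, 21.4 and 21 CPM in A101D 1 to 4 and 0.751, 0.748, 0.315 and 0.566 CPM in A101D 5 to 8, which are 590 to 798 and 11 to 29 counts. MeWo libraries held 65.9, 62.7, 64.2 and 61.9 CPM of E2F2 in 1 to 4 and 57.7, 49.5, 52.5 and 50.2 CPM in 5 to 8. Its log2 fold change between the A101D sets, -5.18 ± 0.2 (SE, limma adjusted p = 1.63e-25), was the lowest of the 21569 genes tested, and rests on few counts in libraries 5 to 8. E2F8 was 5.82-fold lower.

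**Figure D3:**
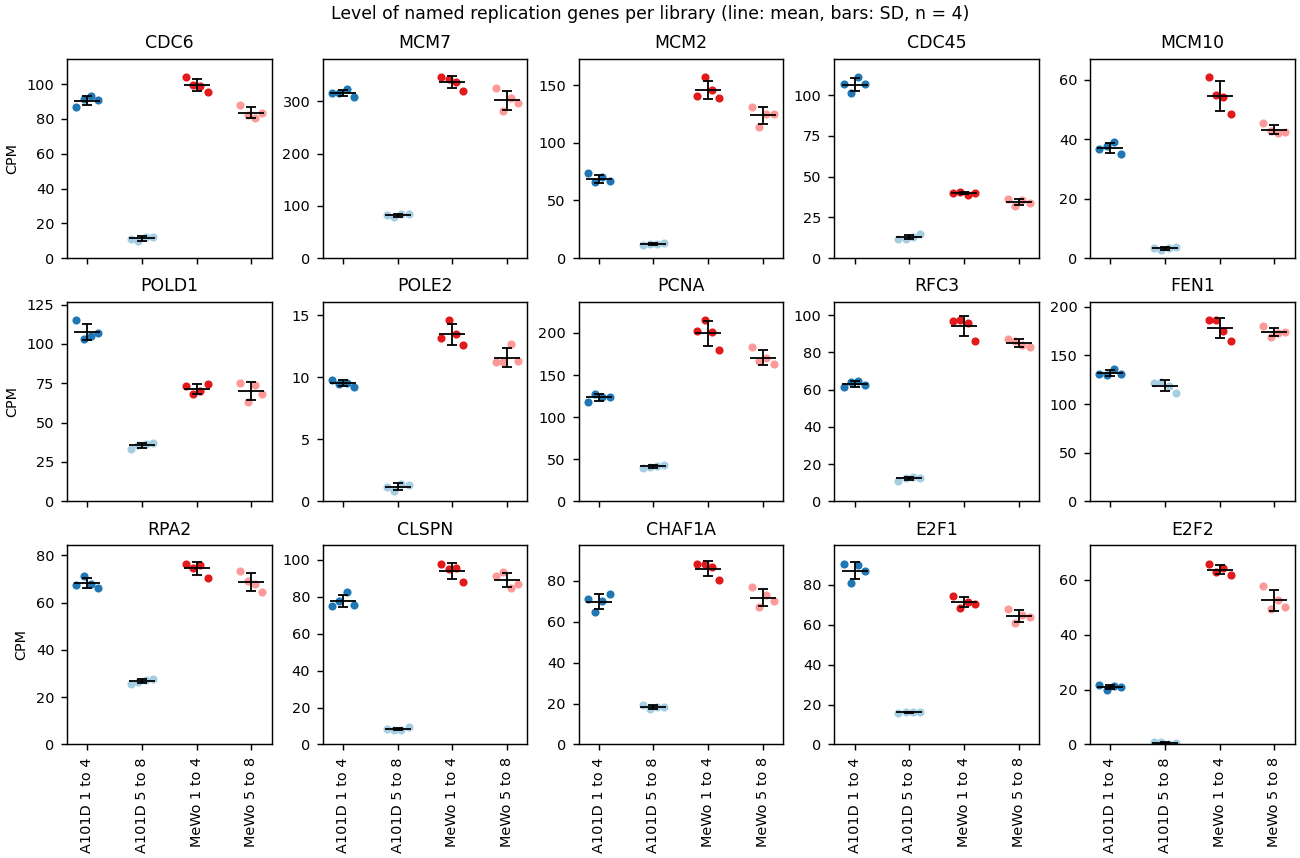
CPM of 15 genes in each library (points), with the mean (line) and SD (bars) of the 4 libraries of each group; every axis starts at 0. The A101D 5 to 8 points lie below all other groups in each panel, close to them only for FEN1.

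In MeWo, 21 of the 46 genes were lower in libraries 5 to 8 (limma adjusted p under 0.05), where 8.51% of all genes tested were called lower and 4.59% higher. That background moved with the processing: 1835 genes were called lower and 990 higher, against 1037 and 2041 with total counts only, and 1152 were lower without MeWo replicate 1 and 1177 without MeWo replicate 2. None of the 46 was called higher, at an adjusted or an unadjusted p under 0.05, by limma with voom weights or by limma-trend. At an unadjusted p under 0.05 limma with voom weights had 27 lower, and limma-trend called 18 lower after adjustment. The 21 were ORC1, ORC6, CDC6 and CDT1, all 6 MCM2-7 subunits, MCM10, CDC45 and GINS2, POLE2, PCNA, RFC2 and RFC3, RPA1, CHAF1A, E2F1 and E2F2. Of the 8 polymerase and primase genes only POLE2 was called here. The 4 genes of fork protection had log2 fold changes from -0.08 to -0.05 and did not pass. In 19 of the 46 genes the sets did not overlap, with libraries 5 to 8 below, where 8.11% of all genes did so. The differences were small in size, from -0.33 (MCM10) to 0.04 (RPA3) on the log2 scale. Since all 46 were lower in A101D, 21 of the 46 were called lower in both lines, where 6.37% of all genes tested were.

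**Figure D4:**
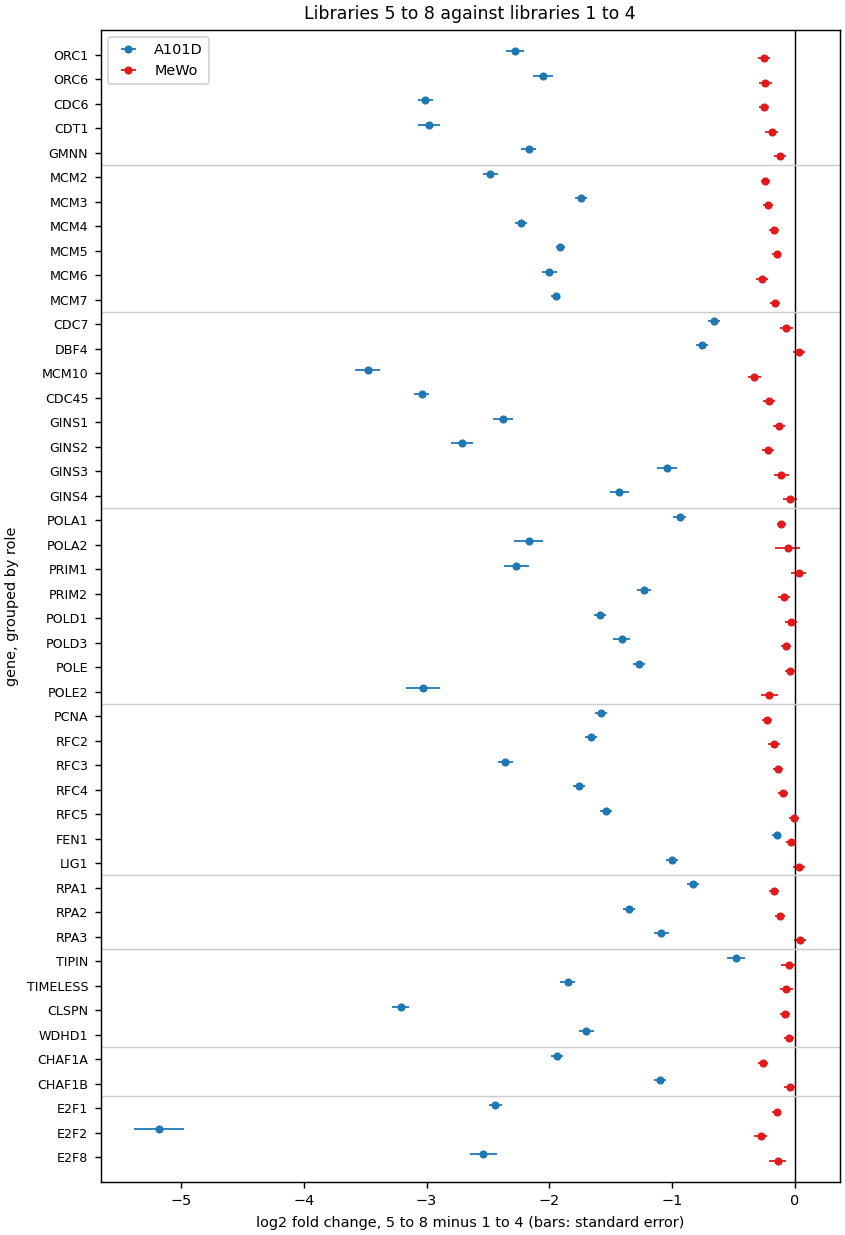
Log2 fold change of each gene between libraries 5 to 8 and libraries 1 to 4 in A101D (blue) and MeWo (red), with standard errors as bars. The A101D values run from -5.18 to -0.15 and the MeWo values from -0.33 to 0.04.

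The test of the difference between the lines in this contrast (MeWo minus A101D) was positive for 45 of the 46 genes at an adjusted p under 0.05, where 27.6% of all genes were called positive and 20.8% negative. The median was 1.7 on the log2 scale, against 0.06 over all genes tested. It ran up to 4.9 ± 0.21 for E2F2 (SE, limma adjusted p = 1.07e-23), followed by MCM10 at 3.15 ± 0.12 (adjusted p = 9.53e-26) and CLSPN at 3.13 ± 0.08 (adjusted p = 2.03e-31). FEN1 did not pass (0.12 ± 0.06, adjusted p = 0.0701); over the alternatives its adjusted p ran from 0.0368 to 0.776, and it passed without MeWo replicate 2 (0.0368), without MeWo replicate 1 (0.0393) or without A101D replicate 6 (0.0497).

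Between the lines, the 2 sets gave different pictures; they share no library. In libraries 1 to 4, 29 of the 46 genes were higher in MeWo and 10 were lower (limma adjusted p under 0.05), where 35.8% of all genes tested were called higher and 43.3% lower. The 4 MeWo libraries lay wholly above those of A101D in 25 genes (32.2% of all genes) and wholly below in 9 (39.9% of all genes). The median log2 fold change was 0.18, against -0.09 over all genes tested. POLD3, an accessory subunit of polymerase delta, was highest, at 20.2, 20.5, 23.9 and 20.1 CPM in A101D and 93.2, 90.1, 89.2 and 86.5 CPM in MeWo (2.09 ± 0.05, SE, adjusted p = 8.83e-34). CDC45 was lowest (-1.42 ± 0.05, SE, limma adjusted p = 6.96e-29). The other 9 that were lower were GMNN, DBF4, POLA1, POLA2, PRIM2, POLD1, RFC2, CHAF1B and E2F1. These directions depended on the scaling. With upper-quartile factors over all genes with a count, 42 were higher and 2 lower, and GMNN, POLA1, PRIM2, RFC2, CHAF1B and E2F1 were called higher in MeWo. The other scalings stayed near the fit reported. Median-of-ratios factors gave 29 higher and 9 lower, and total counts only gave 29 and 10. Over tested genes, TMM factors gave 29 and 10, and upper-quartile factors 30 and 9.

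In libraries 5 to 8, all 46 genes were higher in MeWo (limma adjusted p under 0.05), where 40.5% of all genes were called higher and 43.5% lower. The 4 MeWo libraries lay wholly above those of A101D in all 46, as in 37.6% of all genes tested. The median log2 fold change was 1.99, against -0.03 over all genes tested, from 0.34 ± 0.05 for DBF4 (SE, limma adjusted p = 2.06e-08) to 6.5 ± 0.2 for E2F2 (adjusted p = 4.24e-30). After E2F2, the largest were MCM10 (3.71), CDT1 (3.63) and POLD3 (3.43).

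**Figure D5:**
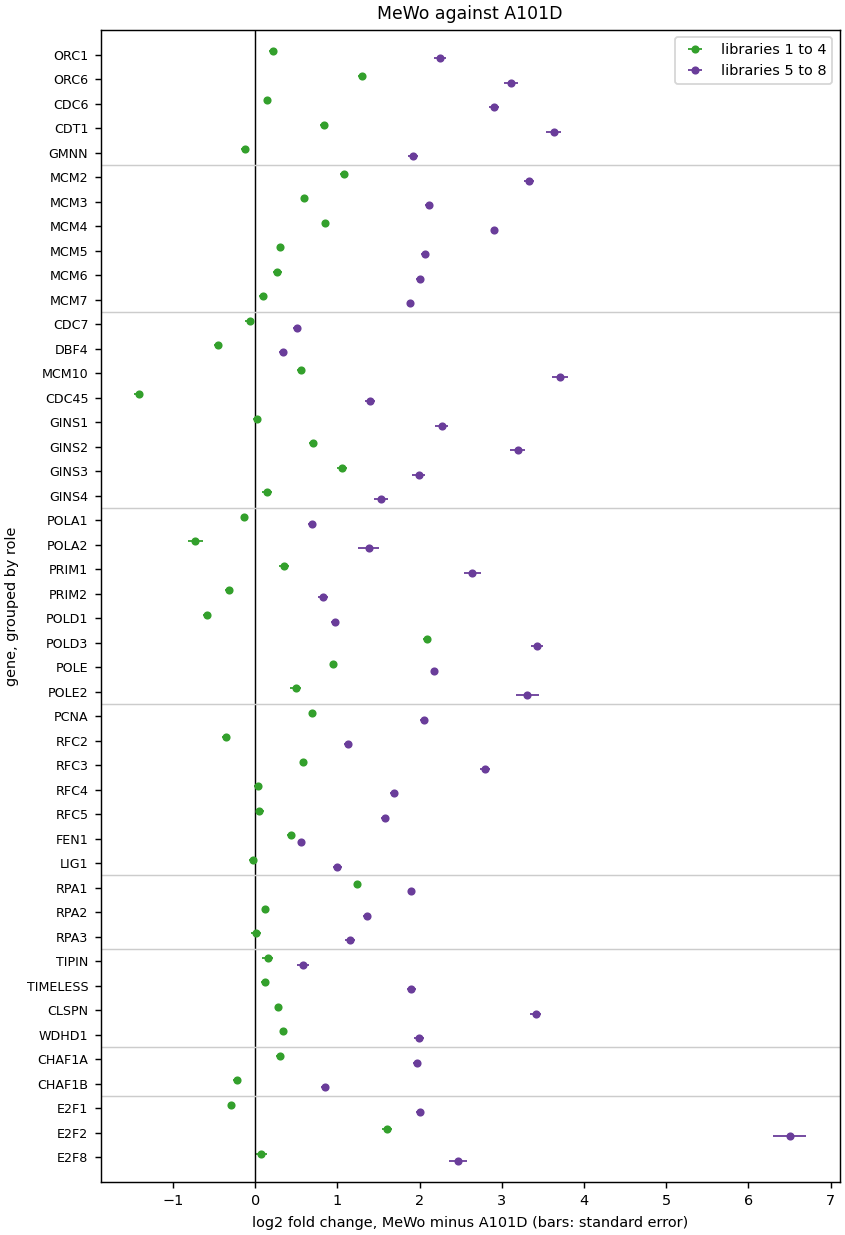
Log2 fold change of MeWo against A101D for each gene in libraries 1 to 4 (green) and in libraries 5 to 8 (purple), with standard errors as bars. The first lie on both sides of 0, from -1.42 to 2.09, and the second are all above 0, from 0.34 to 6.5.

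Beside the E2F-like matches, the A101D set difference had a median of -2.36 over the 19 genes with a match (from -5.18 to -0.94) and of -1.68 over the 20 without one (from -3.48 to -0.15). For the 7 genes without a listed promoter it was -1.43. MCM10 (-3.48), CDC45 (-3.04) and ORC1 (-2.28) had no match in the window, and POLA1 (-0.94) and LIG1 (-1) had a match and smaller differences. These are descriptions, with no test.

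Other genes of the process were read from lists outside the 46. Over all genes tested, 35.8% were called lower and 29.6% higher in A101D 5 to 8. In MeWo 5 to 8 these shares were 8.51% and 4.59%. Of 30 other replication genes, 25 were lower and 2 higher in A101D 5 to 8, with a median log2 fold change of -0.89. The lowest were PCLAF, a partner of PCNA, at 16.8 ± 0.901 and 1.24 ± 0.54 CPM (-3.84 ± 0.17), the histone chaperone ASF1B at 45.4 ± 0.986 and 3.99 ± 0.45 CPM (-3.51 ± 0.09), and TICRR (treslin), an origin firing factor, at 29.2 ± 0.643 and 3.35 ± 0.157 CPM (-3.12 ± 0.08; CPM with SD, n = 4, log2 fold changes with SE). The origin subunit ORC2 (0.11 ± 0.05, limma adjusted p = 0.0435) and CHTF8 (0.68 ± 0.13), part of an alternative clamp loader, were higher, and ORC4, RNASEH2C and ASF1A were not called. In MeWo, 6 of the 30 were lower and 1 was higher.

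Of 10 other E2F and pocket protein genes, 9 were lower and 1, E2F5, was higher in A101D 5 to 8, with a median of -0.58. The largest differences were those of the pocket protein RBL1 (-2.28 ± 0.05), the E2F partner TFDP1 (-1.53 ± 0.04) and RB1 (-0.78 ± 0.05), with SE. Of 15 genes of the S-phase checkpoint and of CDT1 turnover, 12 were lower and 3 higher, with a median of -0.84. FBXO5, an inhibitor of the anaphase-promoting complex (-2.83 ± 0.09), the CDT1 ubiquitin ligase receptor DTL (-2.68 ± 0.06) and the F-box protein SKP2 (-1.52 ± 0.05) were lowest, and ATR, RAD17 and CUL4B were higher. In MeWo, 2 of the 10 and 4 of the 15 were lower, and the others did not pass the test. The shares over all genes tested were 35.8% lower and 29.6% higher in A101D, and 8.51% lower and 4.59% higher in MeWo.

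Exon bases are shared with other annotated genes in 21 of the 46, and the strand setting of the counting is not given in the sources used here. Among the partners with many counts are TPRA1 for MCM2, AP4M1 for MCM7, SLC25A40 for DBF4, GSE1 for GINS2, NACA for PRIM1, EIF4A2 for RFC4, WSB2 for RFC5, TMEM258 and FADS2 for FEN1, SMYD4 for RPA1, UMAD1 for RPA3, UBXN6 for CHAF1A and MORC3 for CHAF1B. Among these partners the shared bases ran from 7 (GSE1 with GINS2) to 392 (AP4M1 with MCM7). Reads in the shared bases could have been assigned to either gene or left out, so the levels of these genes are less certain.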

How the data were processed

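RNA of 16 libraries was analysed, 8 each of A101D and MeWo, made from total RNA with a strand-marking kit, as the labels' protocols state. The deposited data are 1 table per line; each cell joins a gene identifier and a whole-number count, a format outside the usual units, and the counts were taken from these cells. Counts are over exons, per the file headers. The submitters' processing notes name Trimmomatic 0.39-1, STAR 2.7.1a, featureCounts 2.0.0 and GRCh38, without their roles. Strand setting and annotation release: not given in the sources used here. Positions and exon lengths are those of GENCODE v29, which holds 58503 of the 60676 identifiers.

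The 46 genes and all lists were chosen with earlier results of these data known. Library sizes were scaled with TMM factors (trims of 30% and 5%) over all genes with a count. The filter kept 21569 genes, those that reached 0.298 CPM (10 counts at the median depth) in 4 or more libraries and summed to 15 or more counts. The 4 groups, cell line by replicates 1 to 4 or 5 to 8, were fitted together with limma 3.58.1 in R 4.3.3 (voom weights, robust empirical Bayes), with Benjamini-Hochberg adjustment over all genes tested and a threshold of 0.05. Tested on simulated data for the A101D contrast on 20506 genes, the fit recovered 80 of 100 genes changed by 0.5 and 100 of 100 changed by 1 on the log2 scale, with 6 false calls. In these simulated data, unchanged genes had the same mean in all groups, with a fixed dispersion. The changed genes were few and balanced in direction. The simulation therefore cannot show error rates or effects of scaling where as many genes differ as in the real A101D contrast. Within a group, pairs of libraries differed by more than sampling noise (chi-square per degree of freedom 1.86 or more), so none was counted as a second deposit.

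Genes named with every library's value are, in each role, the one with the highest mean RPKM and the one with the largest A101D set difference; FEN1 and POLD3 were added after their values were seen, as the extremes of a comparison. Up to 3 genes with the largest A101D difference were named from each other list, with genes called against their list's direction or not called. Other marker genes (SOX10, TYR, DCT, KDR, EPCAM, KRT5, PTPRC, CD3E) were added after their values were seen. They serve as label checks, as the highest gene of a list or as defining markers near 0. The 6 printed promoters replaced a first choice of 5 made after values were seen. The alternatives were other scaling factors, other filters, limma-trend, a threshold of 0.01, leaving out each library, the replicate number as a block, and a promoter window of 100 bases. TMM and upper-quartile factors over tested genes only were added after seeing the data, when the planned upper-quartile factors, over all genes with a count, had turned several signs between the lines.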

Additional observations from a re-analysis of the deposited data

Results flagged for a closer look

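In 9 of 184 groups of 4 libraries (46 genes in 4 groups), 1 library stood apart from the other 3 beyond Dixon's critical value; chance alone gives about 1 in 20, or 9.2. These were MCM6 in MeWo replicate 5 (89.8 CPM), GINS3 in MeWo replicate 4 (25.7 CPM), PRIM2 in A101D replicate 5 (12.5 CPM), POLD3 in A101D replicate 3 (23.9 CPM), POLE2 in MeWo replicate 7 (12.7 CPM), RFC2 in MeWo replicate 5 (72.7 CPM), RFC3 in MeWo replicate 4 (86 CPM), FEN1 in A101D replicate 3 (136 CPM) and TIPIN in A101D replicate 4 (21.3 CPM).

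The contrast of libraries 5 to 8 against 1 to 4 differed between the lines for 45 genes by the interaction term of limma, and the difference was positive in all 45. The differences (MeWo minus A101D, log2 scale) follow by role. In origin recognition and loading they were 2.03 for ORC1, 1.81 for ORC6, 2.76 for CDC6, 2.79 for CDT1 and 2.05 for GMNN. In the MCM2-7 helicase they were 2.25 for MCM2, 1.53 for MCM3, 2.06 for MCM4, 1.76 for MCM5, 1.73 for MCM6 and 1.79 for MCM7. In origin firing they were 0.59 for CDC7, 0.79 for DBF4, 3.15 for MCM10, 2.83 for CDC45, 2.25 for GINS1, 2.49 for GINS2, 0.93 for GINS3 and 1.39 for GINS4. In polymerases and primase they were 0.84 for POLA1, 2.11 for POLA2, 2.29 for PRIM1, 1.15 for PRIM2, 1.56 for POLD1, 1.34 for POLD3, 1.23 for POLE and 2.82 for POLE2. In the clamp, its loader and lagging-strand joining they were 1.36 for PCNA, 1.49 for RFC2, 2.22 for RFC3, 1.67 for RFC4, 1.53 for RFC5 and 1.03 for LIG1. In single-strand binding they were 0.66 for RPA1, 1.23 for RPA2 and 1.14 for RPA3. In fork protection and coupling they were 0.43 for TIPIN, 1.79 for TIMELESS, 3.13 for CLSPN and 1.65 for WDHD1. In chromatin assembly they were 1.67 for CHAF1A and 1.06 for CHAF1B. In the E2F factors they were 2.29 for E2F1, 4.90 for E2F2 and 2.40 for E2F8. All 45 kept their call under every setting and left-out library tried.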

How the results depend on the processing

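Besides the fit reported, 8 planned settings, 2 settings added after seeing the data (TMM and upper-quartile factors over tested genes) and 16 fits that each left out 1 library were run, and a shorter promoter window. Of 5888 values of single genes under these, 5768 kept their direction and their side of the threshold. All 46 genes stayed lower in A101D 5 to 8 in every fit, except FEN1: it was not called with median-of-ratios factors or with upper-quartile factors over tested genes, and reached 0.01 with total counts only. The median there moved from -1.88 to -1.72 with total counts only and to -1.74 with upper-quartile factors over tested genes, and the interaction median from 1.7 to 1.60 with either. All 46 stayed higher in MeWo in libraries 5 to 8 in every fit; the median moved from 1.99 to 2.48 with upper-quartile factors.

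The planned upper-quartile factors, taken over all genes with a count, shifted the median of all genes by 0.5 in libraries 1 to 4 and by 0.492 in libraries 5 to 8, where the same factors over tested genes shifted it by 0.054 in libraries 1 to 4. In libraries 1 to 4 they took the lower genes from 10 to 2, the median from 0.18 to 0.68, and all genes called to 11896 higher and 5914 lower. They turned GMNN to 0.37, CDC7 to 0.43, DBF4 to 0.05, POLA1 to 0.36, PRIM2 to 0.18, RFC2 to 0.14, LIG1 to 0.47, CHAF1B to 0.28 and E2F1 to 0.21; LIG1, not called in the fit reported (-0.03), was 0.01 with median-of-ratios factors and with total counts only and 0.02 with upper-quartile factors over tested genes. Total counts only shifted the median of all genes by 0.161 in the A101D contrast.

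In the MeWo contrast the counts of all genes moved most: 990 higher became 632 (upper-quartile), 2041 (total counts only), 600 (no filter), 1632 (upper-quartile over tested genes) and 539 (threshold 0.01), and 1835 lower became 1037 (total counts only) and 1001 (threshold 0.01). Leaving out 1 library gave 1152 to 2728 lower, with 1152 without MeWo replicate 1 and 1177 without MeWo replicate 2. Genes near 0 changed sign there. With total counts only these were GINS4 (0.02), POLA2 (0.00), POLD1 (0.03), POLE (0.02), RFC5 (0.04), FEN1 (0.03), TIPIN (0.01), WDHD1 (0.01) and CHAF1B (0.02). With upper-quartile factors they were DBF4 (-0.01), PRIM1 (-0.02), LIG1 (-0.01) and RPA3 (-0.00), and with those over tested genes GINS4 (0.00), POLD1 (0.01), RFC5 (0.02) and FEN1 (0.01). TMM factors over tested genes turned RFC5 to 0.01. Over the left-out libraries, DBF4 ran from -0.01 to 0.06, PRIM1 from -0.00 to 0.05, POLD1 from -0.06 to 0.02, RFC5 from -0.04 to 0.01 and TIPIN from -0.11 to 0.01 in this contrast, and GINS1 from -0.01 to 0.07 and RPA3 from -0.02 to 0.05 between the lines in libraries 1 to 4. None of these was called in the fit reported.

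Of the calls over all genes, the share that was higher was 45.2% in the A101D contrast (59.5% with total counts only), 35% in MeWo (66.3% with total counts only, 18.9% with upper-quartile factors), 45.3% and 48.2% between the lines (66.8% and 65.2% with upper-quartile factors) and 57.0% for the interaction (45.8% with total counts only). Over tested genes, upper-quartile factors gave 57.5%, 54.8% and 46.2% in A101D, MeWo and the interaction, and TMM factors gave 45.3% in MeWo. The replicate block, which cannot estimate the contrasts within a line, left 29 higher and 10 lower in libraries 1 to 4; same-numbered libraries of the lines correlated by -0.026 to 0.078, and 3 of 8 matched their own number best, so the numbers were not taken as pairs. With 100 bases before the start, 25.6% of promoters held an E2F-like match (1.16% of all). The cause of these changes was not tested. In A101D 5 to 8, E2F2 rests on 11 to 29 counts.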
